A study of Mus musculus with 6 samples.

Results

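mmu-miR-103-3p and mmu-miR-107-3p, below miR-103-3p and miR-107-3p, are a pair of near-identical mouse microRNAs (miRNAs). Their rows were taken by name from single-colour Agilent mouse arrays, 2 of the 1247 miRNAs and 4 of the 3105 probes on each array. The cells came from mammary glands of virgin wild-type FVB/N-J mice of an age not given in the sources used here, and every group shares that strain, genotype and state. Cells without lineage markers and positive for CD24 were sorted by CD29 (integrin beta 1). P4 is the CD29-high gate, enriched for mammary stem cells (MaSC) per the labels, and P5 the CD29-low gate, labelled as enriched for luminal cells and, in another field, for luminal progenitors. Each gate had 3 arrays, and the study's design compares the gates. P4 and P5 are mixed populations defined by a gate. The sources used here leave the origin of the replicates unstated (animals, pools or sorts), so each p-value reflects only how far these arrays spread, which may be technical.

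miRNAs are short RNAs that pair through their seed (bases 2 to 8) with messenger RNAs and lower their output. The enzyme Dicer cuts them from hairpin precursors. miR-103 and miR-107 are known to repress Dicer itself and, in human breast cancer cells, to lower the miR-200 family in this way and to favour the epithelial-to-mesenchymal transition (EMT). They sit in introns of pantothenate kinase genes, which make coenzyme A, and they are also known as regulators of insulin sensitivity through caveolin. miR-103 has been used as a reference miRNA in PCR assays because its level varies little between many human tissues. The arrays read miRNAs only, so Dicer and the EMT were not measured.

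The mature sequences are shown because the pair differs so little in them. They are written 5′ to 3′ from RefSeq (GRCm38.p6), with the seed and the base that differs in capitals.
miR-103-3p: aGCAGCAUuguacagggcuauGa
miR-107-3p: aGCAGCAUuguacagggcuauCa
Both have 23 bases and differ at 1 of them, G22C from miR-103-3p to miR-107-3p counted from the 5′ end, so their seeds are the same. The substitution lies next to the last base, at the end where the dye is ligated in this labelling method.

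3 genes make these miRNAs, and their hairpins are shown because they tell apart what the mature forms do not. Capitals mark both mature arms, the 5p arm first.
Mir103-1: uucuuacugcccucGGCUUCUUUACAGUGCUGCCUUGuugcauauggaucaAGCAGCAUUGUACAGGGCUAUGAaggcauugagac
Mir103-2: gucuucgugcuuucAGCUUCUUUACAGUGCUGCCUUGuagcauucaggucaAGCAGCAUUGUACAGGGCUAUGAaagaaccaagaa
Mir107: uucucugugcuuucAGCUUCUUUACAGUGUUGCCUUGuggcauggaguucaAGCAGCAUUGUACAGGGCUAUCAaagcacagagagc
Mir103-1 lies at chr11:35782396-35782481 on the plus strand, within the span of Pank3. Mir103-2 lies at chr2:131288052-131288137 on the plus strand, within Pank2, and Mir107 at chr19:34820687-34820773 on the minus strand, within Pank1. Each host gene runs on the same strand as its hairpin. The 2 loci of miR-103 give the same 3p arm, so its signal cannot be divided between Pank3 and Pank2.

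Each miRNA was read by 2 probes with 20 spots each on every array. All 480 spots of the 4 probes were well above background, none was saturated, and 26 were left out as outliers. Within an array the spots of 1 probe varied with a coefficient of variation of 2.20% to 9.68% (median 4.34%), which is technical spread and leaves a standard error of at most 2.16% on a probe's mean. The 6 arrays detected 325 to 419 miRNAs, lay on 1 slide and were read in 1 scan. All P4 arrays and P5 replicate 1 lay in slide row 1, and P5 replicates 2 and 3 in row 2. Row and gate are thus partly confounded, and a fit with the slide row as a block compares the P4 arrays with P5 replicate 1 alone. The arrays also differed in brightness. The scaling signal of an array, the 75th percentile of the miRNAs detected on all 6 arrays, ran from 186 to 526 intensity units, and was lower in P4 by a log2 value of -0.65 (2-sided exact permutation p = 0.2, where 0.1 is the smallest that 3 against 3 arrays can give).

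Before scaling, the mean signal of miR-103-3p was 201, 379 and 282 intensity units on P4 replicates 1, 2 and 3, and 530, 431 and 302 on P5 replicates 1, 2 and 3. The P5 arrays were brighter on average, but the groups overlapped, since P4 replicate 2 lay above P5 replicate 3. miR-107-3p read 121, 223 and 169 in P4 and 315, 251 and 173 in P5, with the same overlap. Unscaled means were 287 ± 89.1 against 421 ± 114 for miR-103-3p and 171 ± 50.5 against 246 ± 71.1 for miR-107-3p (SD, n = 3 each). In bulk samples such as these, fewer cells of a type and less RNA per cell cannot be told apart.

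After each array was divided by its scaling signal, most of that spread was gone. The scaled signal of miR-103-3p was 1.08, 0.991 and 1.03 on the P4 arrays and 1.01, 0.943 and 0.961 on the P5 arrays. P4 replicate 1 was highest and P5 replicate 2 lowest, and P5 replicate 1 lay above P4 replicate 2, so the groups overlapped. For miR-107-3p the scaled signal was 0.653, 0.582 and 0.620 in P4 and 0.598, 0.548 and 0.548 in P5. The arrays fell in nearly the same order, with P5 replicate 1 again above P4 replicate 2.

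**Figure D1:**
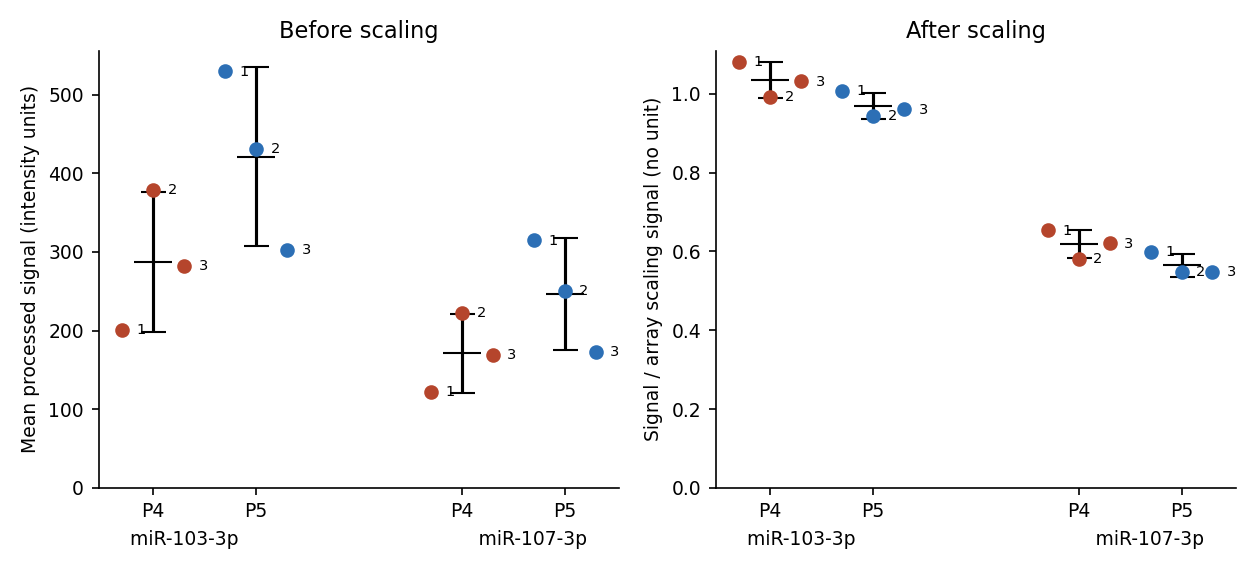
Signal of miR-103-3p and miR-107-3p on each array, before scaling (left, intensity units) and after division by the scaling signal of the array (right, no unit); points are arrays with their replicate number, red for P4 and blue for P5, and bars are the mean and SD of 3 arrays. Before scaling the arrays of a gate spread widely, and after scaling the 6 values of miR-103-3p lie between 0.943 and 1.08.

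Neither miRNA passed the test between the gates. On the log2 scale miR-103-3p averaged 0.05 ± 0.06 in P4 and -0.04 ± 0.05 in P5 (SD, n = 3 each), a difference of 0.09 ± 0.13 (SE) or 1.07-fold, with a 95% interval of 0.857-fold to 1.33-fold (limma adjusted p = 0.642, unadjusted p = 0.51). miR-107-3p was at -0.69 ± 0.08 in P4 and -0.83 ± 0.07 in P5, a difference of 0.13 ± 0.14 or 1.09-fold, with an interval of 0.873-fold to 1.37-fold (limma adjusted p = 0.505, unadjusted p = 0.377). Thus 0 of the 2 were called, adjusted or not, where 27.8% of the 370 miRNAs tested were called in either direction. Groups that do not overlap were found in 42.2% of those miRNAs and in neither of the pair. The SE comes from the spread that limma shares across all miRNAs and is wider than the pair's own spread between arrays. Differences inside these intervals could not be told from none with 3 arrays a gate.

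**Figure D2:**
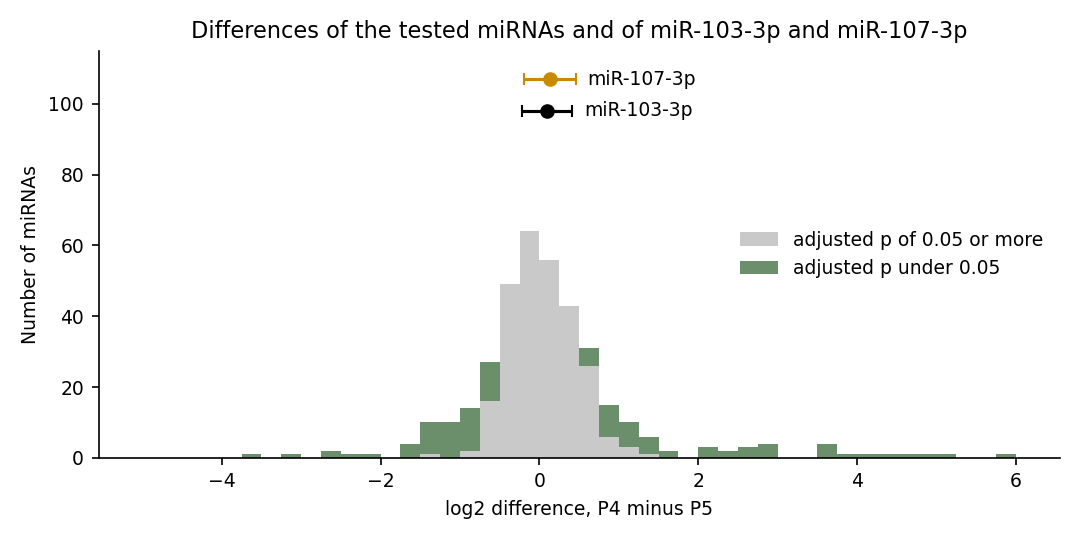
Number of tested miRNAs by log2 difference of P4 minus P5 in steps of 0.25, grey for an adjusted p of 0.05 or more and green for an adjusted p under 0.05 (limma); the points above are miR-103-3p and miR-107-3p with their 95% intervals. Both intervals include 0 and lie in the centre of the distribution, among the miRNAs that were not called.

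The sign of these small differences depended on the scaling. With no scaling miR-103-3p was at -0.56 and miR-107-3p at -0.52, but the median of all miRNAs tested was then at -0.64, so the pair lay 0.08 and 0.12 above that median, close to the 0.09 and 0.13 with scaling. With normexp background correction that median rose to 0.29, and the pair lay below it, at 0.08 and 0.13. With the slide row as a block the pair was at 0.04 and 0.05, also below the median of 0.13, and with scaling to the median miRNA it was at 0.0017 and 0.04. In the authors' processed values the differences were -0.23 and -0.20 (limma adjusted p = 0.232 and 0.303), with a median of -0.43 over all miRNAs tested. There the groups did not overlap: the highest P4 array was at -0.08 for miR-103-3p and the lowest P5 array at -0.01, and these were -0.05 and 0 for miR-107-3p. The share of all miRNAs without overlap in the authors' values is not given here, and with the main scaling it was 42.2%. The lack of overlap is therefore not read as a result about the pair. Neither miRNA was called in any of 25 alternatives, with adjusted p from 0.232 to 0.994, and neither had an unadjusted p under 0.05 in any of them. Without each array in turn, the difference of miR-103-3p ran from 0.07 to 0.12 and that of miR-107-3p from 0.10 to 0.17.

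**Figure D3:**
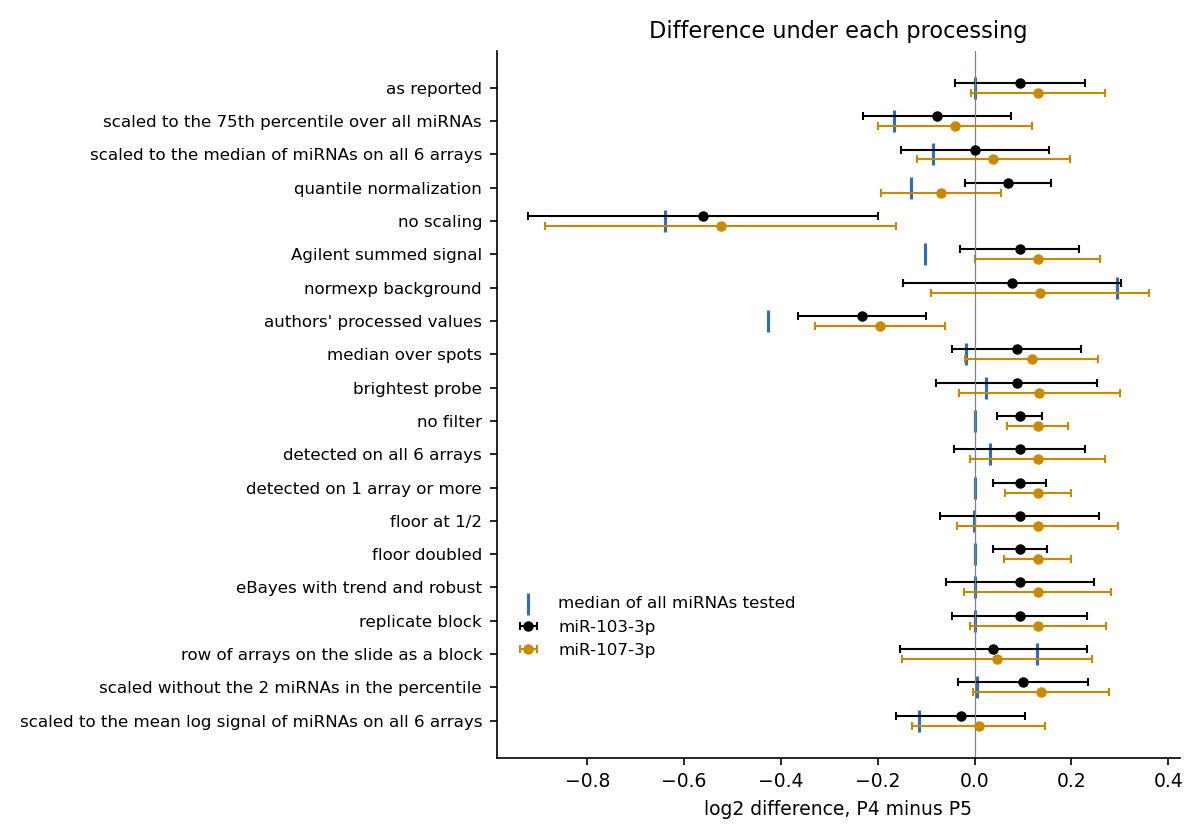
log2 difference of P4 minus P5 for miR-103-3p (black) and miR-107-3p (ochre) under each processing, with bars of 1 SE; blue ticks are the median of all miRNAs tested. The points follow the blue tick to the left with no scaling and with the authors' processed values, and lie within 0.14 of 0 in the other settings shown.

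Read apart, the 4 probes gave the same picture. The 2 probes of miR-103-3p, A_54_P1341 and A_54_P1342, differed between the gates by 0.10 and 0.09, and those of miR-107-3p, A_54_P1420 and A_54_P1421, by 0.12 and 0.14 on the log2 scale. None was called, with limma adjusted p from 0.233 to 0.328 over 868 probes and unadjusted p of 0.11 or more, where 22.7% of probes were called. The arrays of the gates overlapped in all 4 probes, where 38.8% of probes had groups that do not overlap. With only the 730 probes above the floor on all 6 arrays, a filter chosen after the data were seen, the adjusted p ran from 0.586 to 0.735. The scaled signal of A_54_P1341 was 1.17, 1.07 and 1.1 in P4 and 1.08, 1.01 and 1.03 in P5. That of A_54_P1421 was 0.694, 0.609 and 0.650 in P4 and 0.622, 0.573 and 0.571 in P5. On both probes P4 replicate 1 was highest, and P5 replicates 2 and 3 were lowest.

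**Figure D4:**
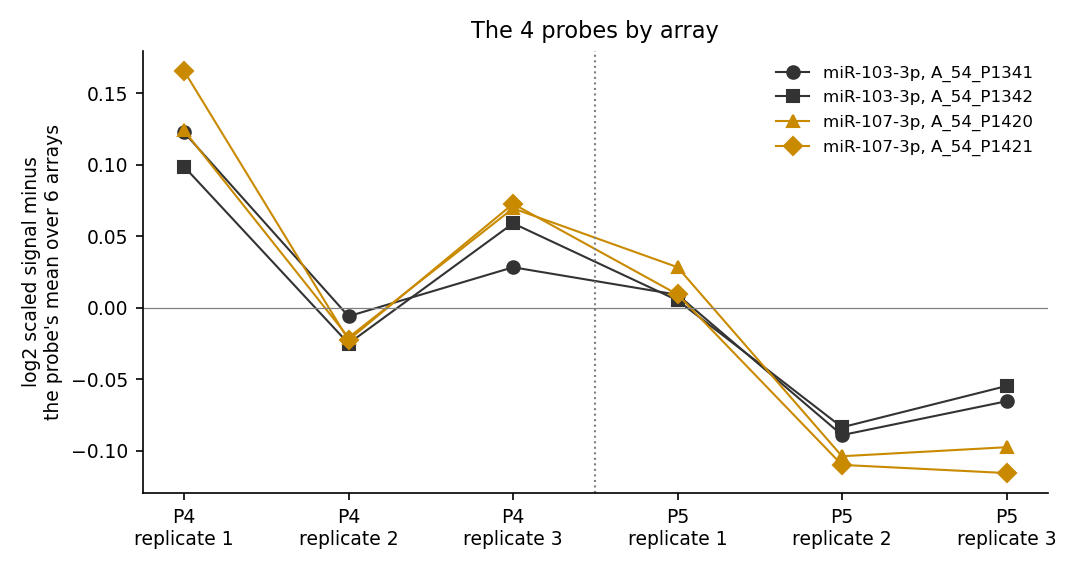
log2 scaled signal of each of the 4 probes on each array, minus the mean of that probe over the 6 arrays; black lines are the probes of miR-103-3p and ochre lines those of miR-107-3p, joined for reading only, with a dotted line between the gates. The 4 lines run together within about 0.07 on every array.

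The next question was whether the arrays read the pair as separate miRNAs. Levels on different probes are not comparable, so the log2 ratio of miR-107-3p to miR-103-3p is used only for its constancy. It was -0.73, -0.77 and -0.73 on the P4 arrays and -0.75, -0.78 and -0.81 on the P5 arrays. The ratio thus stayed within a range of 0.08, with a mean of -0.74 ± 0.02 in P4 and -0.78 ± 0.03 in P5 (SD, n = 3 each). The difference between the gates was 0.04 (2-sided exact permutation p = 0.2), and 0.02 to 0.05 without each array in turn. With 3 arrays a gate the smallest p this test can give is 0.1, so it could not have passed 0.05, and whether the pair responded unequally is not settled by it. The ratio does not depend on a common scaling factor. It was changed by quantile normalization, which moves each signal by its rank: the difference was then -0.14, of the opposite sign, with the smallest p the design allows (exact permutation p = 0.1).

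Over the 6 arrays the SD of this ratio was 0.03. Among the 42778 pairs that can be formed from the 293 miRNAs detected on all arrays, 4 pairs had a smaller SD, or 0.00935%, and the median pair had 0.52. Both miRNAs were steady over the arrays (SD 0.07 and 0.10), which by itself keeps the SD of their ratio small. The place of this pair among all pairs therefore does not bear on whether the 2 miRNAs were read separately. The SD of the ratio between 2 probes of the same miRNA was 0.02 for miR-103-3p and 0.02 for miR-107-3p, and the SD between a probe of one and a probe of the other was 0.0266 to 0.0426. As a scale, 441 pairs of probes to 1 miRNA, over 267 miRNAs, had a median SD of 0.0808. The SDs between probes of the different miRNAs were thus below that of the median pair of probes to a single miRNA. They were above the SDs between the 2 probes of miR-103-3p (0.0202) and of miR-107-3p (0.0222). The pairs of that scale only had to lie above the floor on all 6 arrays and were not matched to the 4 probes for signal. The comparison is therefore not one between probes of like brightness. The steadiness of both miRNAs by itself also keeps the SDs between their probes small. Whether each probe reads its own miRNA, both, or chiefly one was not tested, since the probe sequences were not used here, and reading across and truly parallel levels cannot be told apart by these values.

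Other miRNAs that differ by 1 base are set beside the pair as a description. There were 12 such pairs among the miRNAs detected on all 6 arrays that have a RefSeq sequence, the pair itself included. miR-100-5p and miR-99a-5p, which differ by A16U, had the smallest SD of the ratio, 0.03, and differed between the gates by 1.58 and 1.57. miR-103-3p and miR-107-3p came next, and let-7a-5p and let-7f-5p (G12A) followed, also with 0.03. At the other end, miR-10a-5p and miR-10b-5p (U12A) had an SD of 0.31 and differed between the gates by 0.65 and 1.19. miR-30a-5p and miR-30e-5p (C13U) differed by -0.997 and -0.492, with an SD of 0.30. The place of the base did not sort the pairs by this SD, but the SD also depends on how much each miRNA varied. Of those that differ in the middle of the sequence, some had larger SDs. These were miR-10a-5p with miR-10b-5p, miR-30a-5p with miR-30e-5p and miR-19a-3p with miR-19b-3p (U11C, SD 0.28). In the same stretch, let-7a-5p with let-7f-5p, let-7a-5p with let-7e-5p (U9G, SD 0.07) and miR-29a-3p with miR-29c-3p (C10U, SD 0.08) had smaller SDs. Over the arrays miR-10a-5p and miR-10b-5p themselves had SDs of 0.51 and 0.74, and let-7a-5p and let-7f-5p of 0.19 and 0.20. miR-100-5p and miR-99a-5p varied more, at 0.88 and 0.87. The pairs were not matched for this spread, so the role of the base's place is not settled here. 3 pairs differ within the last 4 bases, the pair itself, miR-27a-3p and miR-27b-3p (C19U, SD 0.25) and let-7a-5p and let-7c-5p (A19G, SD 0.09). The median gap between the gate differences of 1-base pairs was 0.22, that of all pairs was 0.63, and that of miR-103-3p and miR-107-3p was 0.04. The small differences and SDs of miR-103-3p and miR-107-3p by themselves keep their gap and the SD of their ratio small.

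**Figure D5:**
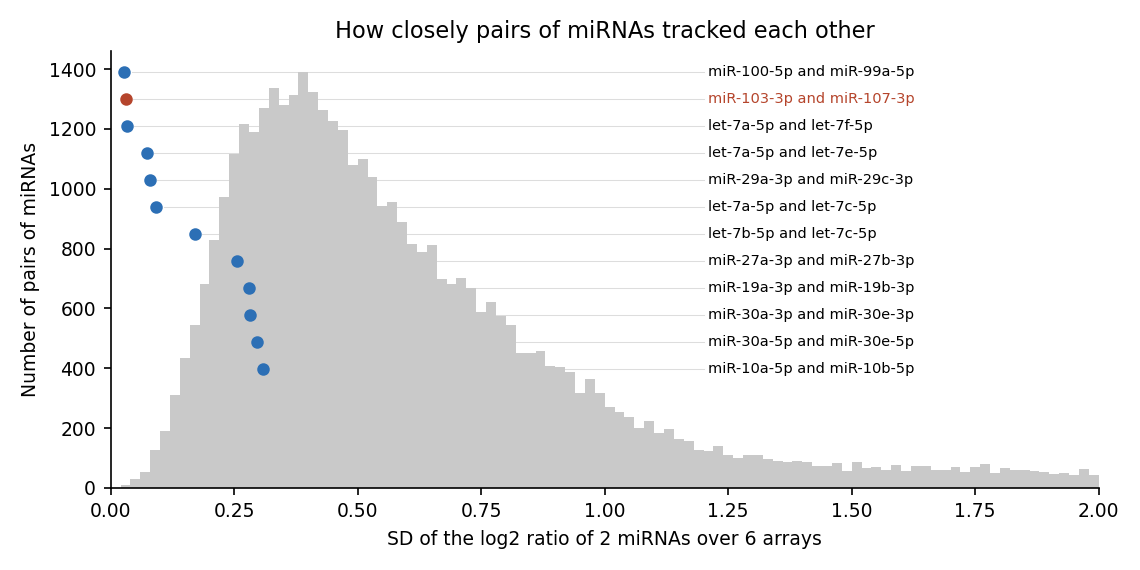
SD over the 6 arrays of the log2 ratio of 2 miRNAs; grey bars count all 42778 pairs of miRNAs detected on all arrays, of which 1440 lie at 2 or more and are not drawn, and points are the 12 pairs that differ by 1 base, set one below the other for reading. The red point, miR-103-3p and miR-107-3p, lies at the far left beside miR-100-5p with miR-99a-5p and let-7a-5p with let-7f-5p.

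The pair was also among the steadiest miRNAs measured. The SD of the log2 scaled signal over all 6 arrays was 0.07 for miR-103-3p and 0.10 for miR-107-3p, where the median of the 293 miRNAs detected on all arrays was 0.34. Only 2 of these had a smaller SD than miR-103-3p, miR-378d and miR-875-3p, named after their values were seen, and the latter lay at the floor of the scale on every array. The scaled signal of miR-103-3p lay beside the scaling signal itself, which could favour it, so the SD was also taken under the other scalings. Leaving the pair out of the percentile, a setting chosen after the data were seen, left 2 miRNAs steadier than miR-103-3p and 6 steadier than miR-107-3p. Over all settings on 6 arrays with some scaling, 0 to 19 miRNAs were steadier than miR-103-3p and 2 to 25 steadier than miR-107-3p. With no scaling, 118 and 109 were, and the SDs were 0.50 and 0.49 beside a median of 0.55. In absolute difference between the gates, 34 of the 293 lay nearer to 0 than miR-103-3p and 52 nearer than miR-107-3p.

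miRNAs with the pattern most like the pair were ranked by Pearson's r over the 6 arrays on the log2 scaled signal, as a description of points that share arrays and scaling. Each of the pair was most like the other (r = 0.99). For miR-103-3p the next were miR-652-3p (r = 0.98), miR-744-5p (0.88) and miR-23a-3p (0.86). For miR-107-3p they were miR-652-3p (r = 0.97), let-7i-5p (0.85) and miR-744-5p (0.84). miR-652-3p had a log2 scaled signal of -2.89, -3.29 and -3.00 in P4 and -3.23, -3.49 and -3.38 in P5. It shared the order of the arrays, with P4 replicate 1 highest and P5 replicate 2 lowest, over a wider range. Its difference of 0.31 ± 0.17 did not pass (limma adjusted p = 0.194), and neither did that of let-7i-5p, 0.25 ± 0.14 (adjusted p = 0.208). miR-23a-3p was higher in P4 by 0.99 ± 0.21 (adjusted p = 0.00984), a call lost with the authors' processed values, without scaling, without the filter and with the slide row as a block. miR-744-5p was higher by 0.62 ± 0.19 (adjusted p = 0.0446), a call lost in most alternatives, among them leaving out 5 of the 6 arrays one at a time. So likeness in shape over the arrays did not mean an equally small difference.

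The 5p arms of the hairpins, which Dicer releases opposite the 3p arms and which are usually degraded, gave no signal. miR-103-1-5p and miR-107-5p, the 2 on the array with 3 probes each, were detected on 0 of 6 arrays, and miR-103-2-5p has no row on the array. The 3 arms differ from each other, but those of Mir103-1 and Mir103-2 only at the base where they begin. With miR-103-2-5p not on the array, the 2 loci of miR-103 could not have been compared by their 5p arms. A miRNA below detection also has no level to compare.

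The seed of the pair overlaps that of the miR-15/16 family, known for repressing cyclins and BCL2, and these miRNAs show what the same core of bases did on these arrays. The 6 bases in capitals are shared by the miRNAs shown, shifted by 1 position between the families, and so is the a just before them.
miR-103-3p: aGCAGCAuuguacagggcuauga
miR-15a-5p: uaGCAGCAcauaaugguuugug
miR-16-5p: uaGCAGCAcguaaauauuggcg
miR-195a-5p: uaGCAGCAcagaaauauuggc
Of the 7 members listed for this family and on the array, 6 were tested. Of those, 2 were higher and 0 lower in P4, where 13.8% of all miRNAs tested were higher and 14.1% lower. miR-195a-5p had a log2 scaled signal of 2.07, 1.89 and 1.67 in P4 and 1.06, 0.77 and 1.08 in P5, so the gates did not overlap, with a difference of 0.91 ± 0.17 (limma adjusted p = 0.00636). Its cluster partner miR-497-5p was at 1.25, 1.03 and 0.68 in P4 and 0.13, -0.31 and -0.10 in P5, a difference of 1.08 ± 0.20 (adjusted p = 0.00601). Without scaling both calls were lost, as they were in the authors' processed values, with no filter and with the slide row as a block. miR-16-5p (0.37 ± 0.16), miR-15a-5p (-0.35 ± 0.15), miR-15b-5p (-0.44 ± 0.14) and miR-322-5p (-0.43 ± 0.41) were not called. The listed members had a median of 0.01, beside 0.0013 over all miRNAs tested, and that median turned below 0 under several scalings. miR-195b was not on the list but was tested, and was higher in P4 by 0.92 ± 0.18 (limma adjusted p = 0.00743). The counts and the median given here leave miR-195b out, and its call under the alternatives is not given. miR-503-5p, a listed member that does not carry all 6 shared bases, was detected on 2 of the 6 arrays, both P5, and was not tested.

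The miR-200 family, which represses the EMT factors Zeb1 and Zeb2 and is lowered by miR-103 and miR-107 in the human work above, differed between the gates. All 5 of its 3p arms were lower in P4 (5 of 5, where 14.1% of all miRNAs tested were lower), with a median difference of -1.33. miR-200c-3p, for example, was at 0.14, -0.03 and -0.55 in P4 and 1.40, 1.29 and 1.69 in P5, a difference of -1.61 ± 0.22 (limma adjusted p = 0.0015). With no filter 0 of the 5 were called, with the slide row as a block 2, and without P5 replicate 3 there were 3. P4 replicate 3 was the lowest array for all 5 arms and also the highest for the endothelial miR-126-3p, with a scaled signal of 16.5 beside 6.48 and 7.39 on the other P4 arrays. Without it all 5 were still called, with a median of -1.16, and the part of other cells in this difference was not tested. Members of the let-7 family are known to act on Dicer and to be destabilised by miR-107 in human cells. Those listed here had a median of -0.24, beside 0.0013 over all miRNAs tested. let-7j (0.38 ± 0.14) and let-7k (-0.50 ± 0.16) were not on the list and were not called (limma adjusted p = 0.0992 and 0.0508). Where 14.1% of all miRNAs tested were lower and 13.8% higher, 1 of the 9 listed members was lower and 0 higher. That member was let-7b-5p, at -0.60 ± 0.17 (adjusted p = 0.0357), and its call was lost without P4 replicate 2 or 3, without P5 replicate 1 or 3, with the summed signal, with no filter and with the slide row as a block. miRNAs of 1 family can be read across by each other's probes here too, which was not tested. The 2 lists were chosen with these data known, and no relation between them and the pair was tested.

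The epithelial markers that could be read ran the way of the labels. miR-205-5p, a miRNA of basal epithelium, was higher in P4 (2.88 ± 0.28), and miR-148a-3p, listed for luminal cells, was lower (-3.64 ± 0.21), while miR-375-3p of luminal cells was detected on no array. Markers of other cells had more signal in P4 as well, and P4 replicate 3 had the most of the endothelial, leukocyte and mesenchymal signal. The calls given for them stand beside 13.8% of all miRNAs tested that were higher. The summed scaled signal of the 2 endothelial arms of miR-126 was 8.09 to 20.6 in P4 and 0.767 to 2.32 in P5, and both were called higher. That of the 6 leukocyte miRNAs was 1.11 to 3.61 against 0.730 to 1.01, with 2 called higher and 4 that did not pass. Those of the 5 mesenchymal miRNAs, 2 of which were detected on no array, were 1.06 to 2.99 against 0.110 to 0.158. For the 4 skeletal muscle miRNAs, 1 of which was on no array, they were 0.452 to 0.764 against 0.0038 to 0.0317. miR-146a-5p among the called leukocyte miRNAs, miR-199a-5p, miR-199b-5p and the 3 muscle miRNAs that were read entered the test through P4 alone, so their calls are not counted as support. Of the 2 erythroid miRNAs, miR-144-3p was on no array and miR-451a on 4 of 6. The part of these cells in the levels of miR-103-3p and miR-107-3p was not tested.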

How the data were processed

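Per the labels' protocols, small-RNA-enriched total RNA of sorted cells was labelled with Cy3. The deposited scanner files give spot intensity on a linear scale, background-subtracted and not scaled between arrays, made by version 11.0.1.1 of Agilent Feature Extraction, per the file headers (11.0 per the submitters' processing notes). Values in the authors' series matrix are log2 and shifted per array and per row by steps not given in the sources used here. Columns had medians of 0.42, -0.36 and -0.06 in P4, and -0.56, -0.47 and 0.06 in P5.

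After removal of controls and outlier spots, probe means of the processed signal were averaged per miRNA. They were scaled by the array's 75th percentile among the 293 miRNAs found on every array, floored at 0.0223 (the 95th percentile of undetected signal, as a median across arrays) and turned to log2. The 370 miRNAs detected on all arrays of a gate were tested with limma 3.58.1 in R 4.3.3 (lmFit, eBayes, 2-sided, no block, Benjamini-Hochberg, threshold 0.05). The number of arrays limits the precision. In 50 simulations of this comparison on 370 miRNAs, a log2 change of 0.25 was called in 2.5% of cases, 0.5 in 21.9%, 1 in 69% and 2 in 94.9%. Of 1247 names 1017 matched a RefSeq mature sequence. The file headers name build mm9, and coordinates here are those of RefSeq on GRCm38.p6, not of probes. The miRNAs, lists, named ones (the pair, its 5p arms, called list members, the 3 most alike, 1-base pairs) and tests were chosen with earlier results of these data known. Replicate numbers did not pair the arrays.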

Additional observations from a re-analysis of the deposited data

How the results depend on the processing

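Neither miRNA was called under any of the 25 alternatives tried, 2 of them (scaling without the pair, and to the mean log signal) chosen after the data were seen, but sign and size changed. With the slide row as a block they were at 0.039 and 0.047, and scaled to the median at 0.0017 and 0.039. Scaled to the 75th percentile over all miRNAs, miR-103-3p was at -0.077 and miR-107-3p at -0.040. With no scaling they were at -0.56 and -0.52, and the 4 probes at -0.56, -0.57, -0.54 and -0.51. With the authors' processed values they were at -0.23 and -0.20. With quantile normalization miR-107-3p was at -0.069 and its difference from miR-103-3p at -0.14. Scaled to the mean log signal, miR-103-3p was at -0.029. let-7i-5p turned to -0.41 with no scaling and -0.076 with the authors' values, miR-652-3p to -0.34 and -0.013, and miR-744-5p to -0.038 with no scaling. The median of the listed miR-15/16 members turned to -0.16 and -0.081 (75th percentile over all miRNAs, median scaling). It was -0.051 (quantile), -0.64 (no scaling), -0.32 (authors' values) and -0.012 (median over spots). It was -0.21 (no filter, and detection on 1 array), -0.11 (mean log signal), -0.089 without P4 replicate 3 and -0.34 without P5 replicate 3. Without any 1 array it ran from -0.34 to 0.22. The count of called miRNAs, 103, was 47 with no filter and 52 with the slide row as a block, a fit that compares the P4 arrays with P5 replicate 1 alone. The higher and lower calls, 51 and 52, were 23 and 77 with no scaling, 47 and 77 over all miRNAs, 52 and 74 with quantile normalization, 55 and 25 with normexp and 31 and 81 with the authors' values. The cause was not tested. Without each array in turn the count ran from 85 to 113. The arrays with the same replicate number did not deviate together (r = -0.09, 0.36 and 0.02), and with the replicate number as a block 111 miRNAs were called, with the pair at 0.09 and 0.13 (adjusted p = 0.623 and 0.51). In the simulations, at 3 arrays a gate, a log2 change of 0.25 was called in 2.5% of cases. That rate is over all miRNAs simulated and was not taken for miRNAs as steady as the pair.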
